A study of Mus musculus with 12 samples.

Results

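A set of 10 genes of fat cell biology was followed in PDGFRα+ cells of skeletal muscle and of bone from control mice and mice with a conditional knockout of the estrogen receptor alpha gene, Esr1. They are the adipogenic transcription factor genes Pparg, Cebpa, Cebpb, Cebpd and Zfp423, and the fat cell and lipid handling genes Fabp4, Adipoq, Lpl, Plin1 and Cd36. The genes were taken by name, and all 10 were found among the 25655 genes of each tissue's table. PDGFRα is a growth factor receptor carried by mesenchymal stromal cells, and the study asked which genes of these cells respond to loss of Esr1. Its title places the work in female mice. The sort kept PDGFRα+ cells lacking CD45 and CD31 in both tissues, and in muscle also those lacking Vcam1. Each of the 4 groups had 3 labelled samples, profiled by 3' mRNA sequencing. Knockout samples of both tissues were PDGFRα-CreER;Esr1flox/flox, in which a drug-inducible Cre recombinase made in PDGFRα-expressing cells can delete the floxed Esr1 alleles. Muscle control replicates 1 and 2 were PDGFRα-CreER, and muscle control replicate 3 was PDGFRα-CreER;Esr1flox/+. Bone control replicate 1 was Esr1flox/flox without a Cre, and bone control replicates 2 and 3 were PDGFRα-CreER. The labels give no age, no inducing treatment and no statement that samples came from separate animals, so the spread behind the p-values may be partly technical.

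Muscle PDGFRα+ cells are also called fibro-adipogenic progenitors because they can become fibroblasts or fat cells. When such a cell commits to fat, the early factors C/EBPβ and C/EBPδ induce PPARγ and C/EBPα, which maintain each other and switch on genes for fatty acid uptake, lipid storage and adipokine secretion. In bone marrow, stromal cells with an adipogenic bias express Adipoq, Lpl and Pparg without storing large amounts of fat.

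The values available were each gene's knockout over control fold change, its p, its false discovery rate (FDR) and its maximum group mean, which is the larger of the control and knockout means in a unit that the header does not name. No value per sample could be tied to a label, so no spread between replicates is given and overlap between groups could not be read. For Esr1 itself the authors' deposited table lists a log2 fold change of 1.02 in muscle (p = 0.404) and -2.69 in bone (p = 0.245), and for Pdgfra 0.50 and 1.06 (p = 0.139 and 0.641), and none of these passed. A 3' tag may lie outside the floxed part of Esr1, so these values do not check the genotype labels. The progenitor markers were present in muscle, with 12 of 12 listed genes above 0 and a summed maximum group mean of 24275. In bone 11 of 12 were above 0, with Osr1 at 0, their sum was 1339, and Pdgfra, the gene of the sorting marker, had a group mean of 8.60. In bulk samples, fewer cells of a type and less RNA per cell cannot be told apart.

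None of the 10 genes passed the authors' FDR of 0.05 in either tissue. In muscle 9 of the 10 had a lower value in the knockout and Lpl a higher one, with a median log2 fold change of -1.07 beside 0.12 over all 13158 genes with a p. The largest differences in muscle were lower values of Pparg, Adipoq, Plin1 and Fabp4. In bone Pparg, Cebpa and Fabp4 had lower values and the other 7 genes higher ones, with a median of 0.71 beside 2.51 over 10518 genes. These medians depend on the level of the genes. At a maximum group mean of at least 50, the 4 muscle members had a median of -0.30 beside -0.000429 over 3149 genes, and the 5 bone members 0.68 beside -0.20 over 1653 genes, so that the bone members lay above all genes rather than below. Of the 10, Fabp4 and Pparg had an unadjusted p under 0.05 in both tissues, each with a lower value in the knockout. Red cell markers of muscle also leaned lower, with 5 of the 6 above 0 lower, where 46.5% of all muscle genes were. Their median was -0.82 and their summed maximum group mean 3931. Among them, Alas2 had -5.64 (p = 0.000409, FDR = 0.132) and Hba-a2 -1.41 (p = 0.0117, FDR = 0.455) in the authors' deposited table. Macrophage markers of muscle leaned the other way, with 10 of 12 higher and a median of 1.98. The part of either marker list in the muscle values was not tested.

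Those counts are read against how often genes were called in each table. In muscle 0 of the 5 members with an FDR passed, where 0.127% of all 7107 genes did. At an unadjusted p under 0.05 there were 4 of 10 members, 3 lower and 1 higher, where 11.7% of all genes reached that p, 5.31% with a lower value and 6.41% with a higher one. In bone 0 of 8 members with an FDR passed, where 0.0352% of 8534 genes did. Unadjusted, 2 of 10 members had a p under 0.05, both lower, where 33.0% of all bone genes did, 4.2% with a lower value and 28.8% with a higher one. The bone share of members lies under that of all genes, and at FDR 0.1 a single member, Fabp4, was reached, with a lower value, where 32.2% of all bone genes were and 4.14% with a lower value.

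**Figure D1:**
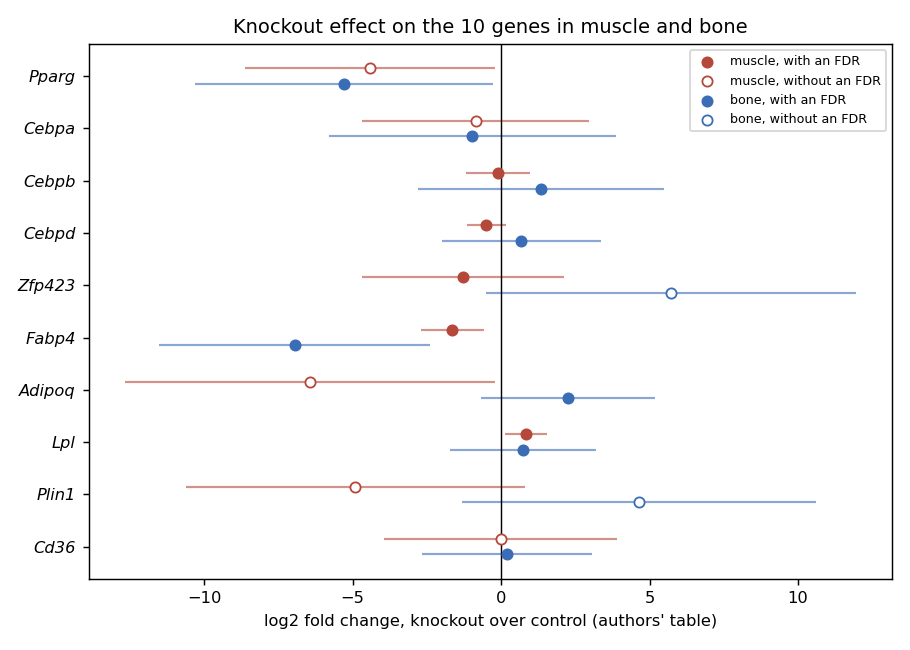
Log2 fold change of the 10 genes, knockout over control, in muscle (red) and bone (blue) from the authors' deposited table. Points are the deposited values, filled where the table gives an FDR, and bars are approximate 95% intervals implied by the deposited p under a two-sided normal test. Fabp4 and Pparg lie left of 0 with bars clear of 0 in both tissues, and Adipoq, Plin1 and Zfp423 lie on opposite sides of 0.

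Pparg encodes PPARγ, the nuclear receptor that drives fat cell differentiation. The gene (ENSMUSG00000000440) spans chr6:115360951-115490399 on the plus strand of GRCm38. In muscle the authors' deposited table gave Pparg a log2 fold change of -4.43, a 21.5-fold lower value in the knockout, with p = 0.0394 and no FDR. Its maximum group mean there was 18.3. In bone the authors' deposited table gave -5.29, a 39.2-fold lower value, with p = 0.0385 and FDR = 0.107 at a maximum group mean of 8.54. The approximate 95% intervals, formed as though each p came from a two-sided normal test, ran from -8.63 to -0.22 in muscle and from -10.3 to -0.28 in bone. The direction was thus shared by the tissues, while the sizes were known only to within several log2 units. Among bone genes with a maximum group mean above 5 and up to 10, 15.1% had a lower value at all, and 5.18% had a value below that of Pparg. In the matching muscle range, above 10 and up to 20, 46.8% of genes had a lower value and 7.18% lay below Pparg.

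Pparg has several promoters, and a 3' tag does not tell which start a transcript used. RefSeq places 3 starts in the gene on GRCm38.p6. The AGGTCA hexamer, the core repeated in estrogen and PPAR response elements, lies 28 bases before the first start and 9 bases before the second, and is shown in capitals in 30-base stretches because the study concerns estrogen receptor targets and Pparg had a lower value at an unadjusted p under 0.05 in both tissues. The 250 bases before the third start are shown whole, since C/EBP factors act upstream of Pparg. CCAAT and the C/EBP-type motif TTGCNNAA are in capitals there, on either strand. All 3 starts lie within the gene span given above, and the third, labelled intragenic below, lies furthest in.
Pparg first start, chr6:115361104-115361133, plus strand: agccgccgcctcAGGTCAgagtcgccccgg
Pparg second start, chr6:115362328-115362357, plus strand: agggacgcgaggAGGTCAagaaggggcctg
Pparg intragenic start, chr6:115421816-115422065, plus strand: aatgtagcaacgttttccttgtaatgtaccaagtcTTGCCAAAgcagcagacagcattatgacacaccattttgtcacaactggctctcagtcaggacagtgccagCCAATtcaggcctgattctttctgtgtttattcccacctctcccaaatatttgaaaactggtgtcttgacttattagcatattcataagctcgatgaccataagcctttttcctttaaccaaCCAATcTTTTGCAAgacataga
The hexamer was found in 4 of the 10 promoter windows of the 7 members that RefSeq's table lists, and in 14.0% of all 32851 windows of 250 bases, searched on both strands. Besides the windows of the first and second Pparg starts, it lay in a window of Cd36 and a window of Zfp423. Neither Cd36 nor Zfp423 had an unadjusted p under 0.05 in either tissue. TTGCNNAA was found in 3 of the 10 member windows and in 9.56% of all windows, and CCAAT in 4 of 10 and in 33.8%. The full palindromic estrogen response element, which overlaps the hexamer, was found in 0 of the 10 and in 0.0639% of all windows, and the PPAR direct repeat of the hexamer in 0 of the 10 and in 0.0335%. The search says only which letters are in these windows. Cebpd, Fabp4 and Lpl have no window among these promoters, so none of their bases were searched.

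The C/EBP genes encode leucine zipper transcription factors that act before and beside PPARγ. The muscle value of Cebpa (chr7:35119293-35121928) in the authors' deposited table was -0.86 (p = 0.658, maximum group mean 11.9). In bone the authors' deposited table gave Cebpa -0.96 (p = 0.696, FDR = 0.863, maximum group mean 14.3). The 2 values were close, but their implied intervals reached from -4.67 to 2.95 and from -5.80 to 3.87, so neither a fall nor a rise was resolved. Cebpb, an early adipogenic factor also induced by inflammation (chr2:167688915-167690418), had -0.10 in muscle (p = 0.855, FDR = 1.00) and 1.34 in bone (p = 0.525, FDR = 0.742) in the authors' deposited table. Its maximum group mean was 162 for muscle, 23.9 for bone. The muscle interval of Cebpb, -1.19 to 0.99, was among the narrower of the members. Cebpd, the other early factor (chr16:15887286-15891031), had -0.49 in muscle (p = 0.136, FDR = 1.00) and 0.68 in bone (p = 0.616, FDR = 0.812) in the authors' deposited table. Cebpd had a maximum group mean of 1706 in the muscle table and 101 in the bone table. Its implied muscle interval was -1.14 to 0.16, the narrowest of the members in that tissue. Pparg, Cebpa, Cebpb and Cebpd are each overlapped by 1 gene on the opposite strand in GENCODE M21, Gm44079, Gm45091, Tmem189 and Spidr in that order, and no label or header says whether the counting used strand.

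Zfp423 encodes a zinc finger protein that marks cells committed to the fat lineage and raises Pparg expression. The gene lies at chr8:87661810-87959595 on the minus strand. In muscle the authors' deposited table gave Zfp423 -1.29 (p = 0.459, FDR = 1.00) at a maximum group mean of 19.6. For bone the authors' deposited table lists 5.73, with p = 0.0712 and no FDR, at a maximum group mean of only 1.11. Of the 174 higher-valued bone genes whose maximum group mean lay within 10% of that of Zfp423, 123 were within 0.5 of the highest value among them. The bone value of Zfp423 is thus one that most genes of its level share, and gives no size of change.

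Fabp4 encodes the fatty acid binding protein of fat cells, which is also made by capillary endothelium and macrophages. It lies at chr3:10204088-10208576 on the minus strand and has 4 exons. In muscle the authors' deposited table gave Fabp4 a log2 fold change of -1.65, a 3.13-fold lower value in the knockout, with p = 0.00234 and FDR = 0.232. The implied interval ran from -2.71 to -0.59, and the maximum group mean was 353. Of 480 muscle genes with a maximum group mean above 200 and up to 500, 2 had a value below that of Fabp4. In bone the authors' deposited table gave Fabp4 -6.95, a 124-fold lower value, with p = 0.00281 and FDR = 0.0784, at a maximum group mean of 80.5. The implied bone interval, -11.5 to -2.39, was wide, and 42 of 915 bone genes with a maximum group mean above 50 and up to 100 lay below Fabp4. That bone FDR is shared by many genes of the table, and recomputed over genes with a maximum group mean of at least 50 it was 0.104, within a range of 0.0784 to 1 over the adjustments tried. Fabp4 was thus the member of smallest p in each tissue, with a lower value in both, and passed in neither.

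Markers of endothelium, a further source of Fabp4, were measured in the same tables. In muscle all 10 endothelial markers were above 0, with a summed maximum group mean of 95.3, 7 lower and 3 higher values and a median log2 fold change of -0.87. Pecam1, the gene of the sorting marker CD31, had -1.54 (p = 0.458) at a maximum group mean of 3.19 in the authors' deposited table, Egfl7 had -8.46 (p = 0.00643) and Kdr 7.88 (p = 0.0130), all without an FDR. Egfl7 and Kdr had maximum group means of 16.8 and 11.9, so their sizes are not estimates. Over all muscle genes with a p, 46.5% were lower and 53.5% higher. Of 12 macrophage markers in muscle, 10 were higher and 2 lower, with a median of 1.98. They summed to 94.8, of which Lyz2, at -0.91, made 61.4, and 0 had an unadjusted p under 0.05. The part of either cell type in the muscle Fabp4 value was not tested. In bone 8 of the 10 endothelial markers were at 0, among them Cdh5, Kdr and Gpihbp1, and the list summed to 0.555. No summed level per group could be formed, because the tables give the larger of the 2 group means alone.

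**Figure D2:**
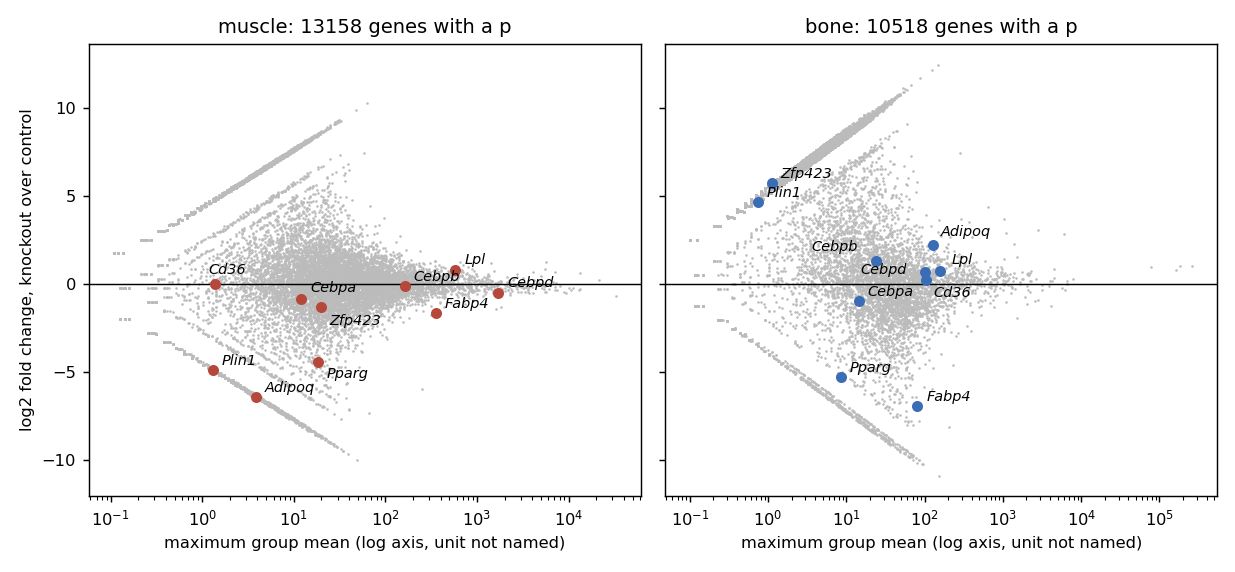
The log2 fold change, knockout over control, against the maximum group mean (log axis) for every gene with a p (grey) and the 10 genes (coloured), in muscle on the left and bone on the right. The straight outer lines hold genes whose fold change follows from their level, and Adipoq and Plin1 in muscle and Zfp423 and Plin1 in bone lie on or beside them, while Fabp4 and Pparg lie off them in both tissues.

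Adipoq encodes adiponectin, a hormone secreted by fat cells and by adipogenic stromal cells of the marrow. In muscle the authors' deposited table gave Adipoq -6.43, an 86.1-fold lower value in the knockout, with p = 0.0434 and no FDR, at a maximum group mean of 3.83. That value lay 0.09 from the lowest among 306 muscle genes of nearly the same level, and 52 genes were within 0.5 of that lowest value. The muscle difference of Adipoq thus rests on a very low level and its size is not an estimate. In bone the authors' deposited table gave Adipoq 2.25, a 4.77-fold higher value, with p = 0.131 and FDR = 0.263, at a maximum group mean of 128. The implied bone interval, -0.67 to 5.17, included 0, and 371 of 384 bone genes with a maximum group mean above 100 and up to 200 had a lower value. The 2 levels stand in separate tables whose normalization is not given, so they were not compared. The 250 bases before the start of Adipoq (chr16:23146536-23158028 on the plus strand) are shown because the gene had opposite directions in the tissues, with the 3 CCAAT boxes, in either orientation, in capitals.
Adipoq, chr16:23146286-23146535, plus strand: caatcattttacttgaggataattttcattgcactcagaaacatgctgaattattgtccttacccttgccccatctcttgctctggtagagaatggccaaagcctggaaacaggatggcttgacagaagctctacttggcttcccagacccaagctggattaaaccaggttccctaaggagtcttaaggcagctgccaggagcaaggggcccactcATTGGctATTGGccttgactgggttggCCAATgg
The boxes begin 34, 27 and 7 bases before the start, and neither AGGTCA nor TTGCNNAA was found in this window.

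Marrow stroma with an adipogenic bias was read from its own marker list beside Adipoq. In bone all 12 of its genes were above 0, 10 with a higher and 2 with a lower value, and the median was 1.49 beside 2.51 over all bone genes. At a maximum group mean of at least 50 the list's median was 0.49 beside -0.20, above all genes rather than below. Cxcl12, the chemokine that gives these cells their name, had 0.49 (p = 0.483) at a maximum group mean of 1121 in the authors' deposited table. Lepr, the leptin receptor gene, had 2.95 (p = 0.171) and Kitl, the stem cell factor gene, -5.97 (p = 0.0170, FDR = 0.0822), and neither passed in the authors' deposited table. The growth arrest gene Gas6 had 11.72 (p = 0.000137, FDR = 0.0784) in the authors' deposited table, Il7 10.10 and Agt 8.85, each without passing. Their maximum group means were 86.2, 30.3 and 11.5. With fold changes this large the smaller group mean is close to 0, so these sizes are not estimates. Adjusted over genes with a group mean of 50 or more, 1 of the list's 5 such genes, Gas6, passed, where 10 of 1653 bone genes did. Blood cell markers of bone stood beside these, with 11 of 11 granulocyte genes higher, 1 of them, Ltf, past the FDR in the authors' deposited table and 5 past it when adjusted over genes with a group mean of 50 or more. Of 11 macrophage genes 9 were higher, 7 at an unadjusted p under 0.05, where 69.7% of all bone genes were higher and 28.8% higher at that p. The summed maximum group means were 12583 for granulocyte and 1717 for macrophage genes, with the macrophage gene Fcgr1 at 0, and 687558 for 9 erythroid genes, 8 of them higher. Their part in the bone values of the members, Fabp4 among them, was not tested.

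Plin1 encodes perilipin 1, the coat protein of the fat cell lipid droplet (chr7:79720218-79732903). Plin1 was listed at -4.91 for muscle (p = 0.0921) and at 4.66 for bone (p = 0.126) by the authors' deposited table, both without an FDR. Its maximum group mean was 1.31 for muscle and 0.736 for bone, so that the gene was close to absent in each table. The muscle value lay 0.11 from the lowest among 145 genes of nearly the same level. At these levels no gene reached an unadjusted p under 0.05, among 500 muscle genes above 1 and up to 2 and 1655 bone genes up to 1.

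Other markers of mature fat cells were mostly not detected. In muscle 6 of 12, Lep, Retn, Pck1, Adrb3, Thrsp and Ucp1, were at 0, and in bone these 6 with Cidec and Lipe were at 0. The list summed to 23.1 in muscle and to 151 in bone, of which Adipoq made the larger share in bone. Cfd, the adipsin gene, had -1.84 in muscle (p = 0.399) and 7.06 in bone (p = 0.0329, FDR = 0.101) in the authors' deposited table, at a bone maximum group mean of 2.83. Slc2a4, the insulin-regulated glucose transporter gene, had 4.60 in muscle (p = 0.139) and -4.54 in bone (p = 0.0664, FDR = 0.148) in the authors' deposited table. The list thus had no common direction in either tissue, and 0 of its genes passed.

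Lpl encodes lipoprotein lipase, which frees fatty acids from circulating triglyceride and is among the earliest genes raised in adipogenesis. In muscle the authors' deposited table gave Lpl (chr8:68880491-68907448) a log2 fold change of 0.83, a 1.78-fold higher value in the knockout, with p = 0.0214 and FDR = 0.590. The implied interval was 0.12 to 1.54 at a maximum group mean of 581. It was the only member with a higher value in muscle, where 162 of 169 genes with a maximum group mean above 500 and up to 1000 had a lower one. In bone the authors' deposited table gave Lpl 0.74 (p = 0.556, FDR = 0.765) at a maximum group mean of 159. The bone interval, -1.72 to 3.20, held both the muscle value and 0. Progenitor markers leaned the same way as Lpl in muscle, with 10 of 12 higher, where 53.5% of all muscle genes were, and a median of 0.38. Among them Dcn had 0.65 (p = 0.0161, FDR = 0.518) and Col3a1 0.70 (p = 0.0128, FDR = 0.478) in the authors' deposited table. Dpp4 (-0.77) and Cd55 (-0.73) were lower. Whether Lpl moved with the progenitor markers across samples was not tested.

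Cd36 encodes the fatty acid translocase, a scavenger receptor of fat cells, endothelium, macrophages and platelets. Cd36 (chr5:17781690-17888801) was listed for muscle by the authors' deposited table at -0.02 (p = 0.993, no FDR) at a maximum group mean of 1.39. In bone it had 0.21 (p = 0.884, FDR = 0.953) at a maximum group mean of 105 in the authors' deposited table. The implied intervals, -3.94 to 3.90 and -2.65 to 3.08, do not show that Cd36 was alike in the groups. Of 8 platelet genes in bone, Itga2b and Gp1ba were at 0, and the list summed to 221. No member shared at least 50 nt at 95% identity or more, over the last 300 nt of its transcript, with any other GENCODE M21 gene.

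**Figure D3:**
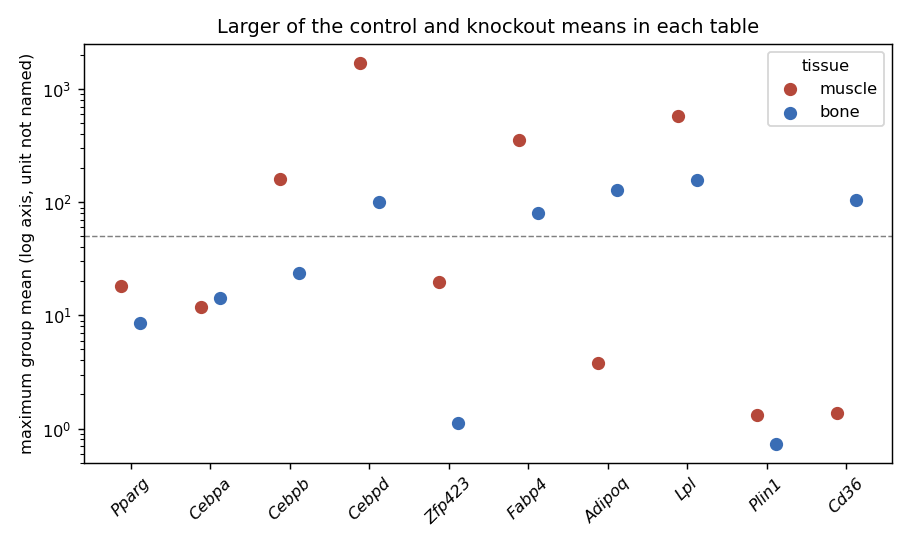
Larger of the control and knockout means of the 10 genes in muscle (red) and bone (blue), on a log axis in a unit that the file header does not name; the dashed line marks 50. The tables were made separately, so heights are not compared between tissues. In muscle 4 genes and in bone 5 genes lie at or above the line, and Plin1 lies near the bottom in both.

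Whether the knockout effect differed between the tissues was tested from the deposited fold changes and the errors implied by their p. That test is a normal approximation, so intervals are given and no single p. After Benjamini-Hochberg adjustment 0 of 9598 genes passed at 0.05, while 24.6% had an unadjusted p under 0.05, as had 3 of the 10 members. Adipoq had a muscle minus bone difference of -8.68, with a 95% interval from -15.6 to -1.79. For Plin1 the difference was -9.56 (-17.8 to -1.31), and for Fabp4 it was 5.31 (0.62 to 9.99). The Fabp4 difference is positive because its bone value lay further below 0 than its muscle value. The muscle level of Adipoq and both levels of Plin1 were the very low ones given above. The interval of Zfp423, -14.1 to 0.08, reached 0. Those of the other 6 genes spanned 0, and the interval of Lpl, -2.47 to 2.65, was the narrowest of all 10. A difference between the tissues was therefore not shown for any member, nor was likeness.

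**Figure D4:**
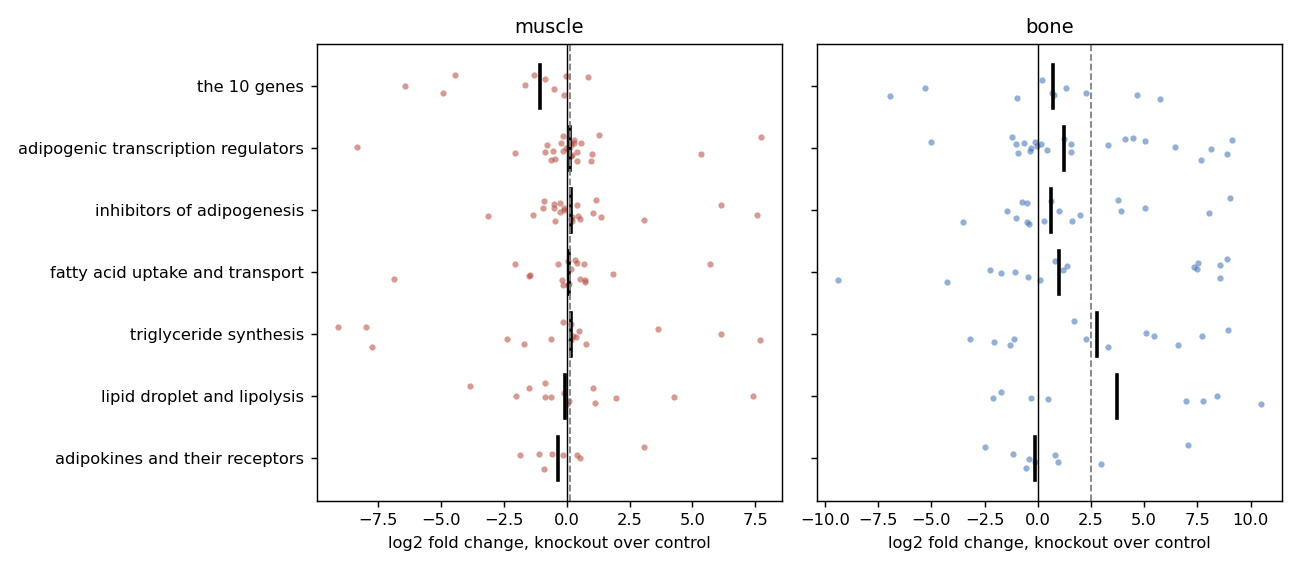
Log2 fold changes, knockout over control, of the 10 genes and of 6 wider lists of adipogenic and lipid genes, in muscle (left) and bone (right). Each point is a gene with a p, black bars are list medians and the dashed grey line is the median of all genes with a p, 0.12 in muscle and 2.51 in bone; list medians stay close to 0 in muscle apart from the 10 genes, and spread from -0.11 to 3.71 in bone.

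The wider fat programme was described by 6 lists with 116 genes. None of these genes passed the authors' FDR of 0.05 in either tissue, and at an unadjusted p under 0.05 there were 12 of the 106 with a p in muscle and 23 of 85 in bone, near or under the 11.7% and 33.0% of all genes. The list medians were close to the median of all genes in muscle, from -0.36 to 0.18 beside 0.12, though at a group mean of 50 or more that of the lipid droplet and lipolysis list was -1.19 over 4 genes. In bone they ran from -0.11 to 3.71 beside 2.51. At FDR 0.1, 32.2% of all bone genes were reached, so bone FDRs just under 0.1 were common.

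Among 26 further adipogenic transcription regulators, 15 had a higher and 11 a lower value in muscle, with a median of 0.15. Klf15, a factor that raises Pparg expression, had -8.32 (p = 0.00778, no FDR) in muscle in the authors' deposited table. Srebf1, a regulator of fatty acid synthesis, had 5.33 (p = 0.00938, FDR = 0.399) and Ppargc1a, a PPARγ coactivator gene, 7.73 (p = 0.0212, no FDR) in the authors' deposited table. Klf15, Srebf1 and Ppargc1a had maximum group means of 15.3, 21.5 and 9.85. The lowest values among muscle genes within 10% of the levels of Cebpa and Pparg, 11.9 and 18.3, were -8.11 and -8.73. The muscle value of Klf15 is thus near the limit of its level, and its size is not an estimate. The size of the Ppargc1a value, at its low level, is not an estimate either. In bone 14 of 23 were higher, with the glucocorticoid receptor gene Nr3c1 at 8.87 and the coactivator gene Ncoa1 at 9.12 in the authors' deposited table (FDR = 0.0784 for both). Their maximum group means were 12.5 and 16.5, so these sizes are not estimates. Of all bone genes above 10 and up to 20, 39.5% had a higher value at an unadjusted p under 0.05. Klf15 had -5.03 in bone (p = 0.0496, FDR = 0.122) at a maximum group mean of 7.80 in the authors' deposited table. It was the 1 regulator of this list with a lower value at an unadjusted p under 0.05 in bone, where 4.2% of all bone genes had one. Ebf1, a regulator of stromal and fat cell fate that was picked with its values in view, had 0.23 for muscle (p = 0.511) and -0.66 for bone (p = 0.749) in the authors' deposited table.

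Of 25 inhibitors of adipogenesis found in the tables, 12 were higher and 11 lower in muscle (median 0.18), and 10 were higher and 7 lower in bone (median 0.62). Wnt10b, which encodes a Wnt ligand that blocks adipogenesis, had 7.57 in muscle (p = 0.0205, no FDR) in the authors' deposited table. Its maximum group mean was 9.94, so this size is not an estimate. Hes1, a Notch effector gene, had -0.46 (p = 0.117, FDR = 1.00) at 1242 in the authors' deposited table. In bone the bone lineage factor gene Runx2 had 8.04 (FDR = 0.0793) at a maximum group mean of 7.27 in the authors' deposited table. Bone genes with a maximum group mean above 5 and up to 10 had a median of 7.63, so the Runx2 value is common at its level. Dlk1, Gata2 and Gata3 were at 0 in bone.

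Triglyceride synthesis was the list with the most unadjusted calls in muscle, 4 lower and 1 higher of 16, where 5.31% of all muscle genes were lower and 6.41% higher at that p, beside a median of 0.18. Gpam, which encodes the first acyltransferase of glycerolipid synthesis, had -9.10 (p = 0.00208, FDR = 0.232) at a maximum group mean of 27.2 in the authors' deposited table. Dgat2 and Mogat1, acyltransferase genes of later steps, had -7.74 (p = 0.0131) and -7.99 (p = 0.0127), and Gpd1, which supplies glycerol phosphate, had 7.69 (p = 0.0217) in the authors' deposited table, all without an FDR. Dgat2, Mogat1 and Gpd1 had maximum group means of 10.03, 12.8 and 9.53. At levels as low as those of Gpam and these genes, the sizes are not estimates. The remaining call, Me1, was picked with its values in view. It had -2.36 (p = 0.0359, FDR = 0.738) at a maximum group mean of 81.5 in the authors' deposited table, and did not pass. At a maximum group mean of at least 50 the list held 4 genes, Me1 among them, and its median was -0.21. In bone 8 of 12 genes were higher, with Dgat1 at 8.96 (FDR = 0.0784) and Scd1 at 7.74 (FDR = 0.0822) in the authors' deposited table, while Fasn, Acaca, Gpd1 and Mogat1 were at 0. Dgat1 and Scd1 had bone maximum group means of 13.4 and 4.66, so these sizes are not estimates.

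The lipid droplet and lipolysis list had 7 higher and 7 lower values in muscle. Bscl2, the seipin gene needed for droplet assembly, had -3.85 (p = 0.00206, FDR = 0.232) at a maximum group mean of 55.4 in the authors' deposited table. Fitm2, a lipid droplet formation gene, had 7.40 (p = 0.0236, no FDR) at 8.16 in the authors' deposited table, a level at which the size is not an estimate. Hilpda, which encodes an inhibitor of lipolysis, had -1.50 (p = 0.0876, FDR = 0.961) in the authors' deposited table. In bone 8 of 16 genes of the list were at 0, and of the rest 5 were higher, with G0s2, another lipolysis inhibitor gene, at 10.50 and Abhd5, a lipase coactivator gene, at 6.95 in the authors' deposited table (FDR = 0.0784 for both). The maximum group means of G0s2 and Abhd5 there were 38.6 and 11.6, so these sizes are not estimates. Bscl2 had 7.75 in bone (FDR = 0.0816) in the authors' deposited table, at a maximum group mean of 4.93. Bone genes just above that level, over 5 and up to 10, had a median of 7.63. The bone size of Bscl2 is thus not an estimate, and its sign opposite to muscle does not show a tissue difference.

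Fatty acid uptake genes were near the centre of the muscle table, with 12 of 19 higher and a median of 0.08. Fabp3, the heart and muscle relative of Fabp4, had -6.87 in muscle (p = 0.0309, no FDR) in the authors' deposited table, and was at 0 in bone. Its maximum group mean in muscle was 5.23, so this size is not an estimate. Lrp1, an endocytic lipoprotein receptor gene, had 0.35 (p = 0.301) in muscle in the authors' deposited table. In bone Slc27a4, a fatty acid transport protein gene, had 8.87 (p = 0.00751, FDR = 0.0784) in the authors' deposited table. Its maximum group mean there was 12.7, so this size is not an estimate. Gpihbp1, which anchors lipoprotein lipase on capillaries and was picked with its values in view, had -1.48 in muscle (p = 0.494) in the authors' deposited table. Of 12 adipokine and receptor genes, Lep, Retn and Itln1 were at 0 in both tissues, and 0 of the 8 with a p in muscle reached an unadjusted p under 0.05. Rbp4, the retinol binding protein gene, had -0.92 for muscle (p = 0.167), and Adipor1, an adiponectin receptor gene, 0.95 in bone (p = 0.338) in the authors' deposited table.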

How the data were processed

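RNA of sorted PDGFRα+ cells was extracted with a column kit and made into QuantSeq 3' mRNA libraries, per the labels' protocols. Aligner, counter and test were not given in the sources used here. GRCm38 and mm10 stand in the submitters' processing notes, but the deposited regions start elsewhere than the GRCm38 positions of the same gene IDs for all 10 members, so coordinates were taken from GENCODE M21 by gene ID (25600 of 25655 IDs matched). Log2 fold changes, p-values and FDR were computed by the authors and deposited, and the group mean is a deposited score of unnamed unit. The 48 further columns, 4 kinds of value per library, carry codes that match no label and were not used, so depth per sample is not given, and the planned count tests, with their replicate block and left-out replicates, were not run. Genes at 0 in both groups have no p.

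A gene was called at FDR under 0.05. Standard errors and 95% intervals were implied from fold change and p by a two-sided normal test, an approximation. The tissue difference used them, with Benjamini-Hochberg adjustment over 9598 genes, and was run on simulated data. Those data were drawn with the same normal errors, so the run checks the computation and not whether such errors hold here. Computation used Python 3.11.15, pandas 2.3.3 and scipy 1.17.1. Promoter sequences are RefSeq's on GRCm38.p6, with 250 bases before each start searched. All 10 members are named, and of each list every gene past the FDR and up to 4 of smallest p in a tissue, of which the text gives those with a known role. Members and lists were chosen with earlier results of these data known. Alternatives were another FDR threshold, adjustment over every gene with a p, Bonferroni, a group mean minimum of 50 and, for the tissue difference, a t distribution with 4 degrees of freedom. Results for 2 genes of the wider lists are not reported here.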

Additional observations from a re-analysis of the deposited data

How the results depend on the processing

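No paired analysis was possible because the per-library columns carry no replicate numbers or labels, and leaving out replicates and the DESeq2 and TMM fits were not run for the same reason. The count of members called stayed at 0 in muscle under each of the 4 alternatives. In bone it was 0 under 3 of them and 1 (Fabp4) at FDR 0.1. All 35 recomputed adjusted p-values of single members stayed above 0.05. Over all genes, muscle went from 9 called to 4 by Bonferroni, and bone from 3 to 2751 at FDR 0.1, to 1 by Bonferroni and to 10 with a group mean of at least 50, the cause of which was not tested. Of the 116 pathway genes, 0 were called, against 12 in muscle and 23 in bone at an unadjusted p under 0.05 and 19 in bone at FDR 0.1. With a group mean of at least 50, the median of all pathway genes in bone turned from 0.95 to -0.37, that of adipogenic transcription regulators from 1.24 to -0.32 and that of fatty acid uptake from 0.99 to -0.48, with fewer genes left, while the median of all bone genes turned from 2.51 to -0.20. In muscle, triglyceride synthesis turned from 0.18 to -0.21 and adipokines from -0.36 to 0.15, and lipid droplet and lipolysis went from -0.05 to -1.19. Adjusted over such genes in bone, 1 marrow adipogenic stroma gene and 5 granulocyte genes passed, against 0 and 1. No tissue difference was called under either alternative. The depth is unknown, so it could not be said which differences were out of reach.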

Other observations

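The deposited annotation itself names fat cell differentiation for 258 genes, a list chosen after the files were seen, and 7 of the 10 members are among them, Zfp423, Plin1 and Cd36 being the exceptions. Of the 251 other genes, none passed the authors' FDR of 0.05 in either tissue in the authors' deposited table, and 24 in muscle and 54 in bone had an unadjusted p under 0.05, of 217 and 168 with a p, close to the 11.7% and 33.0% of all genes. In muscle 12 of these 24 were higher and 12 lower, with a median log2 fold change of 0.13 over the 217 genes with a p. The 4 of smallest p in muscle in the authors' deposited table were Id2 (-1.29, FDR = 0.171), an inhibitor of helix-loop-helix factors, Sfrp2 (1.32, FDR = 0.221), a secreted Wnt modulator, Bscl2 (-3.85, FDR = 0.232) and the growth factor gene Igf1 (1.07, FDR = 0.268). In bone 46 of the 54 were higher, where the median of all genes was 2.51 and that of this list 2.45. The 4 of smallest p there in the authors' deposited table were Zbtb7a (10.28), Lrg1 (10.20), Noct (7.25) and Selenbp1 (9.37), each at FDR = 0.0784. Their maximum group means were 36.0, 31.7, 17.4 and 15.3, so these sizes are not estimates.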
